A study of Mus musculus with 24 samples.

Results

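Phase II conjugation is the step of hepatic detoxification in which a polar group is joined to a drug, a bile pigment, a hormone or a reactive by-product so that it can leave the cell. Glutathione S-transferases (GSTs) add glutathione, UDP-glucuronosyltransferases (UGTs) add glucuronic acid, and cytosolic sulfotransferases (SULTs) add a sulfate group. Hepatocytes are known as a main site of these reactions, and many of the genes lie in tandem clusters of related copies. The phase II genes were taken here as those whose names begin with a letter code of a GST, microsomal GST, UGT or SULT family, pseudogenes left out, and that had a mean of at least 1 FPKM (fragments scaled to transcript length and to the mapped fragments of the library) over all 24 libraries. Members were thus selected on measured levels. Of 67 genes with such a name, among 54733 in the tables, 46 passed this limit: 22 GST genes, 17 UGT genes and 7 SULT genes.

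The libraries are of poly(A)-tailed liver RNA from male C57BL/6 mice of 2 genotypes. WT mice carry the intact *Bmal1* gene, and ΔRRE mice lack on both alleles the 2 RREs (ROR response elements) at the 5′ end of *Bmal1*, which encodes a core activator of the circadian clock. There were 2 libraries per genotype at each of the circadian times CT2, CT6, CT10, CT14, CT18 and CT22, and CT counts hours of the internal day, CT0 being the start of the subjective day. The deletion was made with CRISPR-Cas9 in zygotes and is present in every cell of the mouse, so that the liver was not changed alone. The study made 2 mutant lines and used 1 of them unless it names the other, and the mice were in constant darkness. Tissues were taken from mice 8 to 24 weeks old, and the labels give no age for a single library.

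*Arntl*, the symbol of *Bmal1* in the tables, had an amplitude (the height of a fitted 24-h cosine wave above its mean, on the scale of log2(FPKM + 0.1)) of 2.57 in WT and 0.29 in ΔRRE, and the rhythm differed between the genotypes at an adjusted p = 0.0463 (limma, Benjamini-Hochberg over 11244 genes). This call did not hold in most alternatives. No gene was called with a constant of 0.01 FPKM, without the filter on low genes, with the replicate block or without the intensity trend. The same held in 19 of the 24 fits without 1 library. A filter at a mean of 5 FPKM left *Arntl* itself untested, since its mean was 4.36 FPKM. The summed FPKM ran from 554170 to 624746 per library, and the 46 members made up 1.24% to 1.58% of it. The 5 hepatocyte markers (*Alb*, *Apoa1*, *Ttr*, *Serpina1c*, *Cps1*) summed to 32496 to 49278 FPKM. Summed levels were at most 8.79 FPKM for 4 cholangiocyte markers, 92.3 for 5 of Kupffer cells, 86.9 for 5 of stellate cells, 35.4 for 4 of endothelial cells and 0.317 for 3 kidney genes. The kidney genes were below the limit for testing. No tested gene of these lists, or of the pericentral, periportal, acute phase and sex-linked lists, passed the test of a genotype difference. As no gene of all 11244 passed it either, this does not show that the composition was equal. *Xist* reached at most 0.0456 FPKM and *Ddx3y* was at 10.5 to 19.8 FPKM in all 24 libraries. The ΔRRE libraries CT10 replicate 1 and CT14 replicate 1 stood apart in the sum of 5 acute phase genes (*Saa1*, *Saa2*, *Lcn2*, *Orm2*, *Hp*). This sum was 5519.7 and 7553 FPKM there and 1267 to 3711 FPKM in the other 22 libraries. The 2 libraries did not stand apart in each gene, as *Lcn2* was at 87.1 FPKM in ΔRRE CT10 replicate 2 and 79.4 in CT10 replicate 1. The log2 difference (ΔRRE minus WT) was positive for each of the 5 genes, from 0.32 for *Hp* to 1.34 for *Lcn2*.

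GST transcripts made up most of the pool. Per length, the 22 GST members held 67.1% of the summed FPKM of all members, the 17 UGT members 24.9% and the 7 SULT members 7.99%. The highest member was *Mgst1* (ENSMUSG00000008540), a microsomal, membrane-bound GST, with 1861 ± 281 FPKM (SD, n = 24 libraries) and a range of 1370.4 to 2418. Next in level came *Gsta3*, *Gstm1* and *Gstp1*, the leading genes of the alpha, mu and pi classes of soluble GSTs. Their means were 968 ± 204, 837 ± 192 and 706 ± 178 FPKM (SD, n = 24 libraries). The ranges of these 3 genes overlapped widely, from 628 to 1344 for *Gsta3*, 500.2 to 1109 for *Gstm1* and 364 to 1043 for *Gstp1*, so that their order is not the same in each library. All libraries of *Mgst1* lay above every library of *Gsta3*.

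Among the transferases of glucuronic acid, *Ugt2b5* led the UGT2 genes with 421 ± 60.9 FPKM, ahead of *Ugt2b1* with 298 ± 74.96 and *Ugt2b36* with 292 ± 34.9. *Ugt1a1*, the enzyme that conjugates bilirubin, led the UGT1 genes with 267 ± 75.04, and *Ugt3a2* the UGT3 genes with 143 ± 14.3. Of the sulfotransferases, *Sult2a8* stood at 402 ± 82.1 FPKM, *Sult1a1*, which sulfates phenols, at 185 ± 55.7 and *Sult5a1* at 4.42 ± 2.26 (SD, n = 24 libraries each). The leading theta, omega, zeta and kappa GSTs were *Gstt1*, *Gsto1*, *Gstz1*, which also acts in tyrosine breakdown, and *Gstk1*, with 155, 77.5, 253 and 90.3 FPKM. *Gstz1* was the steadiest member: its highest library was 1.39 times its lowest, against a ratio of 201 for *Ugt1a2*.

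**Figure D1:**
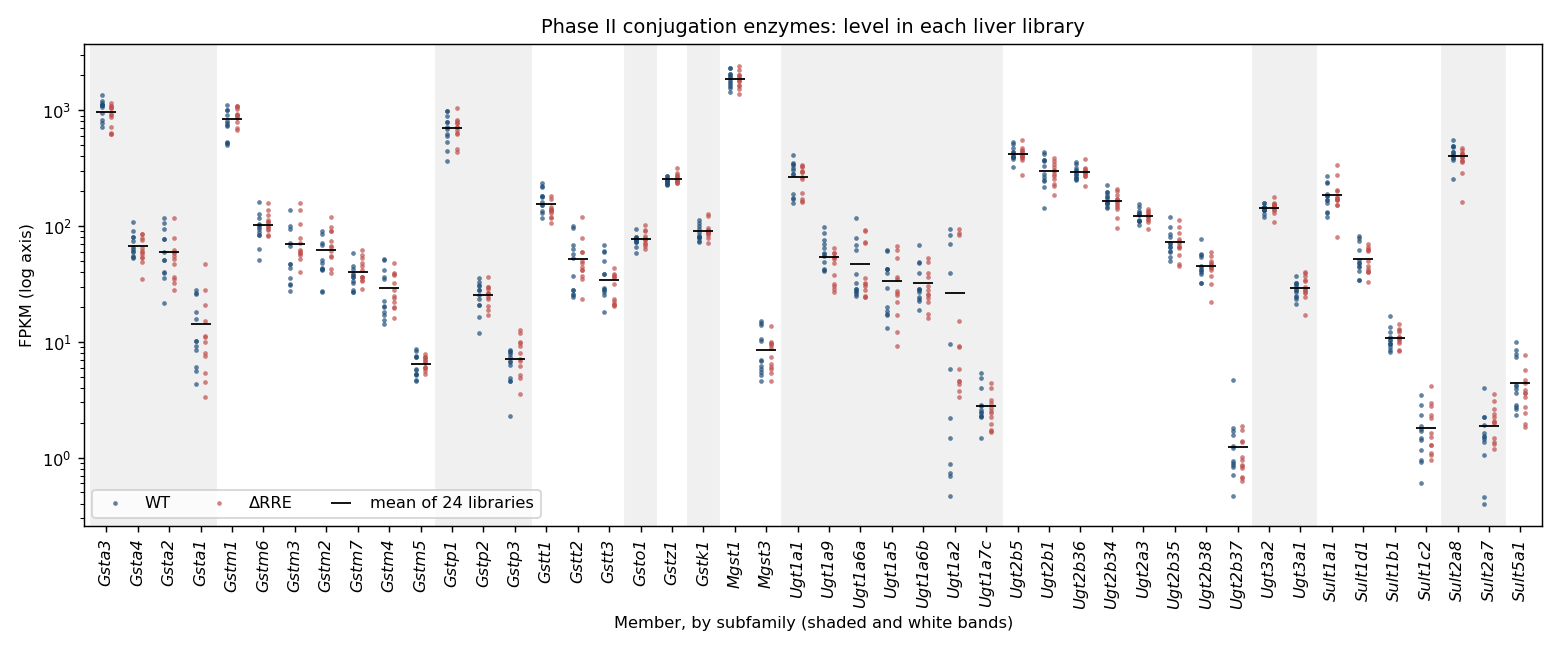
FPKM of each of the 46 members (log axis) in the 12 WT libraries (blue) and the 12 ΔRRE libraries (red), with the mean of all 24 as a bar. *Mgst1*, *Gsta3*, *Gstm1* and *Gstp1* lead, WT and ΔRRE points overlap for every member, and *Ugt1a2* has the widest spread, from 0.470 to 94.5 FPKM.

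At the limit of 1 FPKM, the lowest members were *Sult2a7*, *Sult1c2* and *Ugt2b37* with means of 1.88, 1.82 and 1.24 FPKM, and the highest genes left out were *Ugt1a10*, *Sult1e1* and *Gsto2* with 0.422, 0.145 and 0.0544. No SULT3 gene reached the limit. Of the 21 genes left out, 8 were listed at 0 in each library, among them *Sult2a1* to *Sult2a6* without *Sult2a2*.

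Members varied more between replicates than most liver genes did, and 36 of the 46 had a replicate SD above the median of all genes tested. The replicate SD of log2(FPKM + 0.1), pooled over the 12 pairs of libraries that share genotype and time, had a median of 0.42 over the 46 members and 0.25 over all 11244 genes that passed the same limit. Above 20 FPKM, where low values weigh less, the medians were 0.36 for 36 members and 0.18 for 2499 genes. The widest members were *Ugt1a2* with 2.63, *Gsta1* with 1.11, *Ugt1a5* with 0.89 and *Sult2a7* with 0.83, and the narrowest *Gstz1* with 0.08.

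The first comparison asked whether the level of a member, averaged over the 6 time points, differed between ΔRRE and WT. No member passed an adjusted p of 0.05 in limma's test, and no gene of the 11244 did (0% called). At an unadjusted p under 0.05 there were 5 members and 1002 genes in all. The smallest adjusted p of a member was 0.438, for *Gsta3*. The log2 difference (ΔRRE minus WT) was above 0 for 23 members and below 0 for the other 23, while it was above 0 for 65.5% of all genes tested, and after rescaling by the median of ratios it was above 0 for 18 members. The members had a median of -0.0070, beside a median of 0.037 over all genes tested. Since liver pieces were measured in bulk, fewer cells of a type and less RNA per cell cannot be told apart in any of these values.

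The 5 members under an unadjusted p of 0.05 had both signs: *Gsta3*, *Gstt1* and *Ugt1a9* were lower and *Gstm1* and *Gstm2* higher in ΔRRE, with none past the adjusted threshold. *Gsta3* was at 714, 1111 and 1344 FPKM in WT (lowest, median and highest of 12 libraries) and at 628, 913 and 1165 in ΔRRE, a log2 difference of -0.23 ± 0.082 (SE). *Gstm1* was at 500.2, 767 and 1109 in WT and 676, 911 and 1081 in ΔRRE, a difference of 0.29 ± 0.13 (SE). For *Gstt1*, a theta-class enzyme that handles small halogenated compounds, the values were 118, 168 and 235 in WT and 107, 137 and 183 in ΔRRE, with a difference of -0.29 ± 0.11 (SE). In each case the 2 genotypes overlapped over most of their range, and the adjusted p was 0.438, 0.537 and 0.445 (limma).

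By size, the 4 members with the largest positive difference were *Ugt1a2* at 1.0 ± 0.996 (SE), *Sult2a7* at 0.47 ± 0.28 (SE), *Gstm2* at 0.44 ± 0.18 (SE) and *Gstm3* at 0.42 ± 0.24 (SE). The 4 with the largest negative difference were *Ugt1a9* at -0.44 ± 0.18 (SE), *Gstt3* at -0.36 ± 0.21 (SE), *Sult5a1* at -0.33 ± 0.25 (SE) and *Gstt1*, given above. Their adjusted p ran from 0.445 to 0.837. For *Ugt1a2* the SE was about as large as the difference itself. With 1 library left out its difference ran from 0.62 to 1.54, that of *Sult2a7* from 0.27 to 0.61 and that of *Sult5a1* from -0.45 to -0.21. Over the other settings *Gstm2* was as low as 0.28 and *Gstm3* as low as 0.21.

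Sorted by subfamily, all 7 mu GST members had a positive difference, from 0.086 to 0.44, and all 4 alpha GST members a negative one, from -0.23 to -0.11. None of the 11 passed the test. Over the 12 replicate differences the 21 pairs of mu genes had a median Pearson's r of 0.54, so the 7 values are not separate observations. Of the 8 UGT2 members, 7 had a difference below 0, and their median was -0.047. Without ΔRRE CT14 replicate 1, 3 of the 8 UGT2 differences were below 0, and without both ΔRRE libraries high in acute phase genes 2 were, while the mu and alpha counts stayed at 7 and 4. The alpha count was 3 without WT CT2 replicate 1, without ΔRRE CT2 replicate 2 or without ΔRRE CT10 replicate 2. Rescaling the libraries by the median of their ratios moved the median over all genes from 0.037 to -0.0017 and left the 7 mu differences above 0, the 4 alpha differences below 0 and all 8 UGT2 differences below 0.

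**Figure D2:**
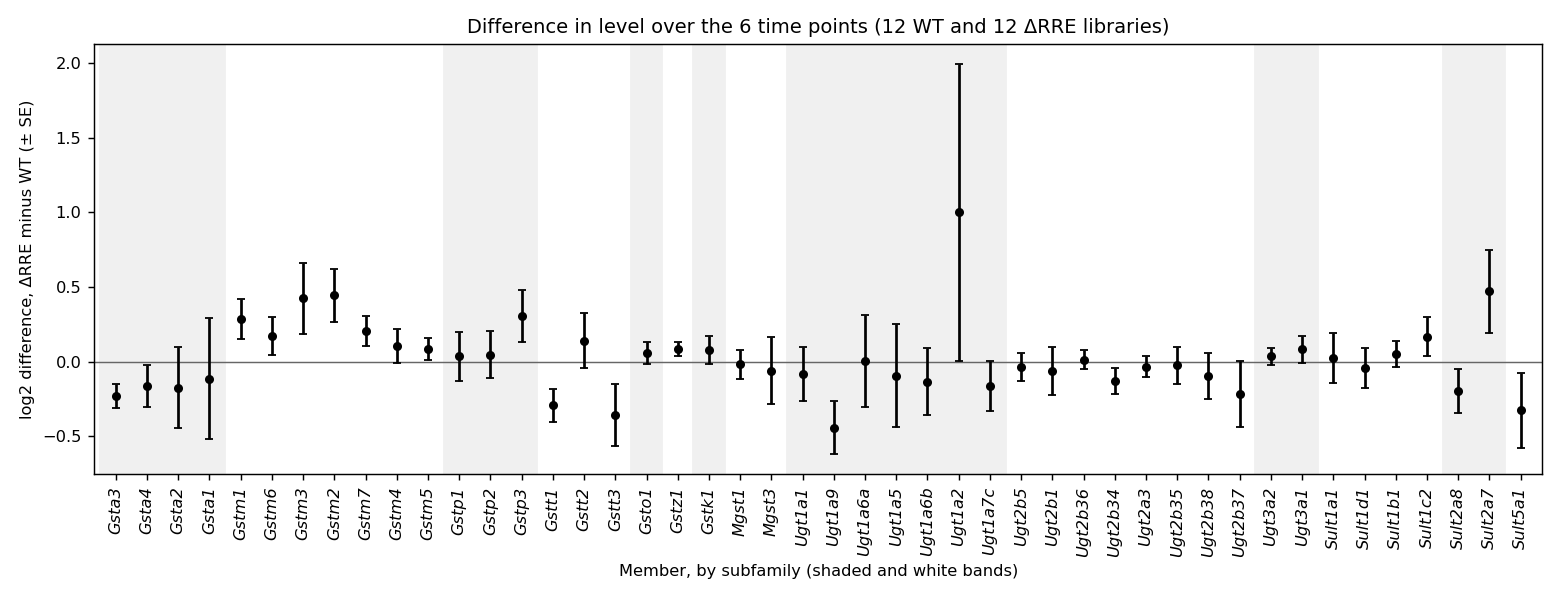
Log2 difference in level (ΔRRE minus WT, over 6 time points) of each member, with the SE from limma as error bars. Bands mark subfamilies. The 7 mu GST genes lie above 0 and the 4 alpha GST genes below, and no difference passed an adjusted p of 0.05.

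The 2 libraries high in acute phase genes held extremes of several members, in both directions. Of the 46 members, 11 had their lowest value of all 24 libraries in ΔRRE CT14 replicate 1, among them *Ugt2b5*, *Ugt2b36*, *Ugt2b38*, *Ugt3a2* and *Sult2a8*, a sulfotransferase of the SULT2 family. *Sult2a8* was at 161 FPKM in this library and at 451 in the other of its group, and at 287 and 432 in the ΔRRE CT10 pair. ΔRRE CT14 replicate 1 also held the highest value of 2 members, *Sult1a1* and *Gstp3*. ΔRRE CT10 replicate 1 held the highest value of 7 members, *Gstm2*, *Gstm3*, *Gsta1*, *Gstt2*, *Gsto1*, *Gstk1* and *Sult1c2*, and the lowest of 2, *Ugt2b34* and *Ugt2b35*. Extremes were not confined to these libraries. WT CT6 replicate 1, with an acute phase sum of 2412 FPKM, held the highest value of 8 members and the lowest of 4. WT CT18 replicate 2 held the lowest value of 6 members. No such count over all genes is given here. The part of the acute phase genes in these values was not tested.

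The next comparison asked which members were rhythmic. With the wave terms of both genotypes tested together, 6 of the 46 members were called at an adjusted p under 0.05, which is 13% of them, beside 18.7% of all genes tested. They were *Gstm4*, *Sult1c2*, *Gstt2*, *Gsta3*, *Gstm7* and *Gstm2*. In WT alone 7 members were called, 15.2% beside 10.3% of all genes, namely *Gstm4*, *Gstm7*, *Sult1c2*, *Gstm2*, *Gstt2*, *Ugt2b34* and *Sult1b1*. In ΔRRE alone 2 were called, *Gstm4* and *Sult1c2*, 4.35% beside 4.57% of all genes. By looser criteria after those of the study (p under 0.3, here from the cosine fit, a peak over 1.5 times the trough, and a highest SD of at most 1.5 times the distance from trough to peak), 16 members were rhythmic in WT, 34.8% beside 37% of all genes, and 22 in ΔRRE, 47.8% beside 35.4%. By these criteria all 7 mu GST members were rhythmic in WT and 2 of them in ΔRRE, and 1 of the 7 UGT1 members in WT and all 7 in ΔRRE. The UGT1 genes share exons and the mu genes vary together, so neither count is of separate observations. The same limit holds for the 16 in WT, which include the 7 mu genes, and for the 22 in ΔRRE, which include the 7 UGT1 genes. The share of 47.8% is thus not one of separate genes. The test of a difference in rhythm, given below, called none of these 14 mu and UGT1 genes.

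*Gstm4* (ENSMUSG00000027890), a mu-class GST on chromosome 3, had the clearest rhythm. In WT its replicates were at 50.6 and 35.2 FPKM at CT2, 51.9 and 41.8 at CT6, 36.4 and 17.2 at CT10, 20.6 and 14.2 at CT14, 18.1 and 15.3 at CT18 and 22.7 and 19.99 at CT22. In ΔRRE they were at 38.7 and 37.4 FPKM at CT2, 39.5 and 47.7 at CT6, 28.05 and 23.95 at CT10, 20.2 and 16.2 at CT14, 24.8 and 19.7 at CT18 and 22.3 and 31.99 at CT22. In both genotypes the 4 libraries of CT2 and CT6 lay above the 4 of CT14 and CT18. The amplitude was 0.81 ± 0.13 (SE, log2 scale) with a peak at CT4.5 in WT, and 0.59 ± 0.087 with a peak at CT3.8 in ΔRRE. The adjusted p was 0.00518 in WT, 0.00686 in ΔRRE and 5.77e-05 for both together (limma). With time as a factor the WT call was lost, at 0.0754, and the other 2 were kept.

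*Sult1c2*, a sulfotransferase of low level in this liver, had the largest amplitude of the wave shared by both genotypes, 0.78 ± 0.10 (SE). With 1 FPKM added in place of 0.1 it was 0.51, below *Gstm4* with 0.67 and *Gstt2* with 0.67. In WT its values were 1.86 and 1.42 FPKM at CT2, 2.35 and 1.69 at CT6, 3.47 and 2.87 at CT10, 1.75 and 1.48 at CT14, 0.913 and 0.601 at CT18 and 0.954 and 1.17 at CT22. In ΔRRE they were 1.62 and 1.49 FPKM at CT2, 2.76 and 2.94 at CT6, 4.12 and 2.20 at CT10, 2.31 and 1.09 at CT14, 1.06 and 0.952 at CT18 and 1.27 and 1.28 at CT22. Its mean was highest at CT10 in either genotype, at 3.17 ± 0.424 FPKM in WT and 3.16 ± 1.36 in ΔRRE (SD, n = 2), and the lowest mean at CT18. The fitted peaks were CT8.1 and CT7.9, with an adjusted p of 0.00955 in WT and 0.0279 in ΔRRE. The ΔRRE call was lost without any 1 of 5 ΔRRE libraries, both of CT6, both of CT18 and CT10 replicate 1, with adjusted p up to 0.072, and also without the filter on low genes (0.0849) and with time as a factor (0.136).

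*Gstt2*, a theta-class GST, peaked later. In WT it was at 53.2 and 26.1 FPKM at CT2, 99.5 and 57.6 at CT6, 95.5 and 68.9 at CT10, 62.9 and 25.2 at CT14, 36.8 and 27.9 at CT18 and 24.3 and 27.8 at CT22. In ΔRRE it was at 41.5 and 23.3 FPKM at CT2, 78.8 and 41.8 at CT6, 119.8 and 60.2 at CT10, 59.7 and 47.5 at CT14, 50.2 and 44.6 at CT18 and 34.97 and 36.7 at CT22. The CT10 libraries were above those of CT22 in both genotypes, and of all pairs of replicates those of WT CT14 were the farthest apart in ratio. The shared wave had an amplitude of 0.69 ± 0.13 (SE) and a peak at CT9.5, with an adjusted p of 0.00466 for both genotypes together and 0.023 in WT. The WT call was lost without CT10 replicate 1 or without CT22 replicate 1, with adjusted p up to 0.061, and without the filter on low genes (0.112). With time as a factor it was lost too (0.178), as was the joint call (0.0936).

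*Gsta3*, whose alpha-class product conjugates lipid peroxidation products and, in mice, aflatoxin epoxide, was called over both genotypes together but in neither alone. Its WT values were 1212 and 1078 FPKM at CT2, 1109.9 and 778 at CT6, 939 and 714 at CT10, 1116 and 816 at CT14, 1117 and 1111 at CT18 and 1344 and 1155 at CT22. Its ΔRRE values were 1078 and 1038 FPKM at CT2, 629.5 and 924 at CT6, 633 and 628 at CT10, 724 and 872 at CT14, 1165 and 1094 at CT18 and 903 and 1053 at CT22. The lowest mean fell at CT10 in both genotypes, 826 ± 159.6 FPKM in WT and 630.4 ± 3.18 in ΔRRE (SD, n = 2). The shared wave peaked at CT21.7 with an amplitude of 0.33 ± 0.057 (SE) and an adjusted p of 0.00564 over both genotypes, beside 0.0802 in WT and 0.0524 in ΔRRE. With time as a factor in place of the cosine wave the joint call was lost, at an adjusted p of 0.0978. The other 5 called members peaked between CT3.8 and CT9.5.

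*Gstm7* and *Gstm2*, neighbours of *Gstm4*, were high at CT2 or CT6 and low at CT14 and CT18 in WT. *Gstm7* had 52.2 ± 9.76 FPKM at CT2 and 27.4 ± 0.539 at CT14 in WT (SD, n = 2), and 49.5 ± 5.65 and 38.1 ± 13.8 in ΔRRE. *Gstm2* had 77.7 ± 12.01 at CT6 and 34.5 ± 10.6 at CT18 in WT, and 71.8 ± 25.7 and 70.6 ± 4.95 in ΔRRE, where its highest mean was at CT10, 92.4 ± 37.4. In WT their adjusted p was 0.00901 and 0.0184, and over both genotypes 0.016 and 0.0473. The joint call of *Gstm2* was lost in 16 of the 24 cases when single libraries were removed, with adjusted p up to 0.117. Without WT CT18 replicate 2 the adjusted p of *Gstm2* in WT was 0.0506. With time as a factor the calls of both genes were lost, at 0.0818 and 0.21 in WT and 0.26 and 0.33 over both genotypes. Those of *Gstm2* were also lost without the filter, at 0.0907 and 0.113. The joint call of *Gstm2* was lost as well after rescaling by the median of ratios and without the intensity trend.

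**Figure D3:**
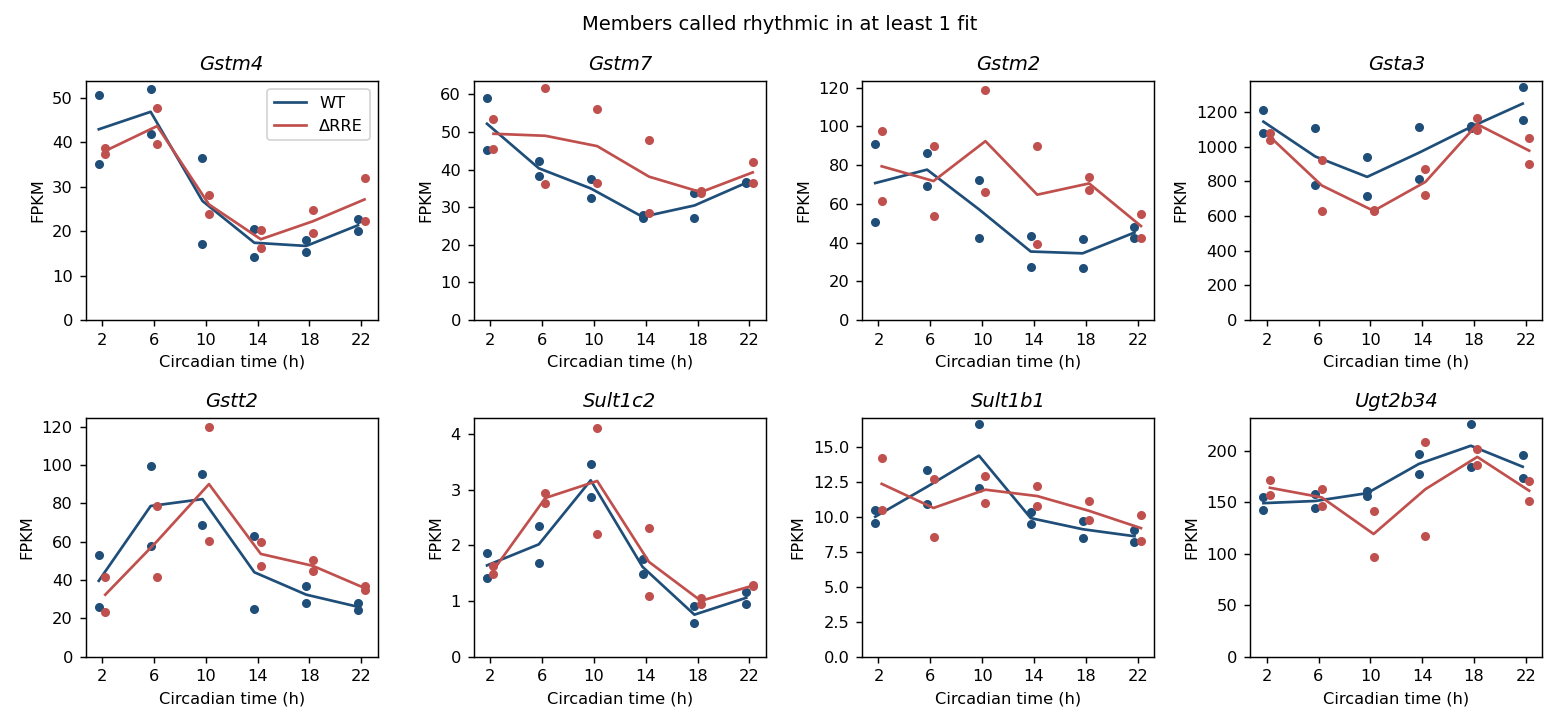
FPKM by circadian time (h) of the 8 members called rhythmic in at least 1 fit, with each library as a point and the mean of the 2 replicates as a line, WT in blue and ΔRRE in red. *Gstm4* is highest at CT2 and CT6, *Sult1c2* and *Gstt2* are highest at CT10 and *Gsta3* is lowest at CT10, in WT and in ΔRRE alike.

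*Ugt2b34* and *Sult1b1* were called in WT only. *Ugt2b34*, a glucuronosyltransferase of the UGT2 family, had 205 ± 29.4 FPKM at CT18 and 149 ± 9.02 at CT2 in WT (SD, n = 2), an adjusted p of 0.0315. In ΔRRE its 2 CT14 libraries stood at 117 and 208, the first of them the library high in acute phase genes, and the adjusted p was 0.361. Its fitted amplitude was much the same, 0.24 ± 0.053 (SE) in WT and 0.23 ± 0.11 (SE) in ΔRRE. *Sult1b1*, which sulfates thyroid hormone and phenols, had 14.4 ± 3.23 at CT10 and 8.62 ± 0.613 at CT22 in WT, an adjusted p of 0.0339, and 11.95 ± 1.39 and 9.20 ± 1.35 in ΔRRE, an adjusted p of 0.689. Leaving out 1 WT library ended the *Ugt2b34* call for 7 of the 12 and the *Sult1b1* call for 8 of the 12, with adjusted p up to 0.082 and 0.08. Without the filter on low genes the adjusted p was 0.0513 and 0.0804, and with time as a factor 0.283 and 0.204. The *Ugt2b34* call was also lost without the intensity trend, and the *Sult1b1* call after rescaling by the median of ratios.

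A call in 1 genotype alone does not show a difference, which was tested directly. No member differed in rhythm between the genotypes by limma at an adjusted p under 0.05, beside 1 gene of the 11244, *Arntl* (0.00889%), a count that was 0 in the alternatives given above for *Arntl* and 4 with time as a factor. At an unadjusted p under 0.05 there was 1 member, *Ugt1a2*, and 319 genes. The adjusted p of each member was 0.9999 or more. The median amplitude over the members was 0.24 in WT and 0.27 in ΔRRE, beside 0.20 and 0.19 over all genes, and it was lower in ΔRRE for 23 of the 46 members.

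Among the mu GST genes, the shared waves of the 7 members *Gstm1* to *Gstm7* peaked between CT3.8 and CT7.7, with amplitudes from 0.17 for *Gstm1* to 0.70 for *Gstm4*, and 3 of the 7 were called. In WT alone the fitted peaks ran from CT3.0 to CT5.8 and in ΔRRE alone from CT3.8 to CT12.4. *Gstm3* had the fourth largest amplitude of all members, 0.48 ± 0.16 (SE), at an adjusted p of 0.0572. Next came *Ugt2b37* with 0.42 ± 0.17 at an adjusted p of 0.316. Over all 46 members, 15 peaked from CT0 to CT6, 12 from CT6 to CT12, 11 from CT12 to CT18 and 8 from CT18 to CT24, shares of 32.6%, 26.1%, 23.9% and 17.4% beside 27.7%, 27.5%, 22.9% and 21.8% of all genes tested. For members that were not called, a fitted peak time is only a point estimate.

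**Figure D4:**
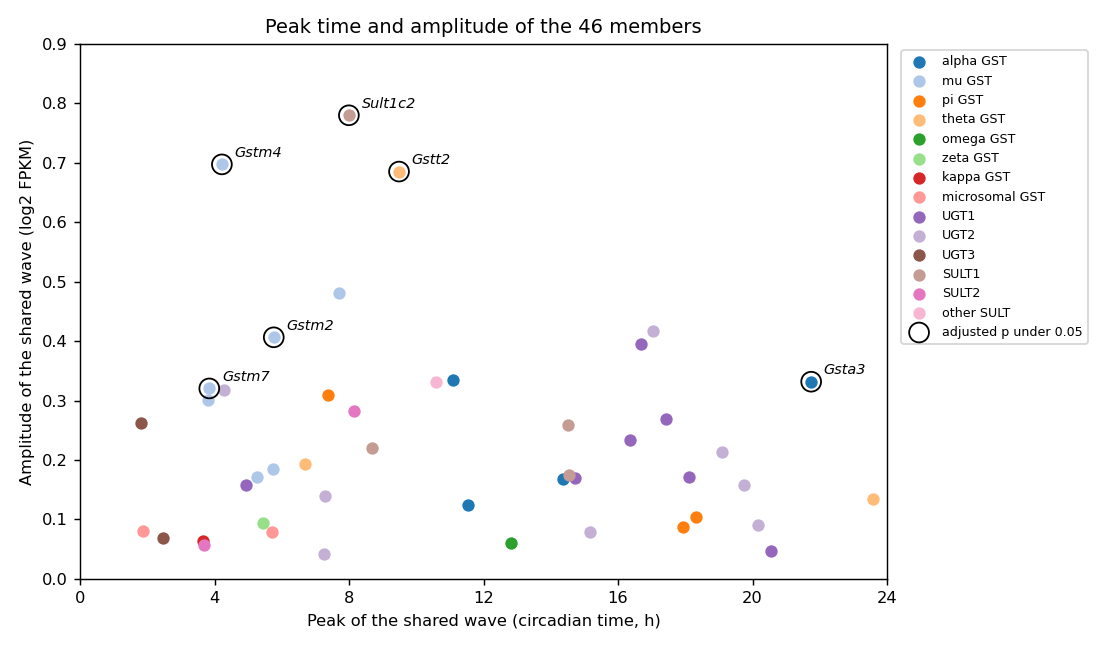
Peak time (circadian time, h) against amplitude (log2 scale) of the wave shared by both genotypes, 1 point per member, coloured by subfamily, with a ring around the 6 members called at an adjusted p under 0.05. The 7 mu GST genes lie between CT3.8 and CT7.7, and *Gsta3* is the only ringed gene after CT12.

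To describe the promoters, the RefSeq windows (GRCm38.p6) from 250 bases before to 50 bases after each start site were searched on both strands for letters that clock and stress factors are known to bind. There were 51 such windows for 41 of the 46 members and 32851 for all genes. The E-box CACGTG, bound by CLOCK and BMAL1, was in 0 of the 51 windows, beside 7.15% of all. The D-box TTATGTAA, bound by DBP, TEF and HLF, was in 1, beside 0.938% of all, and its looser form TTANGTAA, which includes it, was in 3, beside 2.32%. The RORE, AGGTCA right after 6 bases that are each A or T, was in 0, beside 0.259%. The study gives functional RREs a different form, with A or G before GGTCA, which was not searched here. The core of the antioxidant response element, TGACNNNGC, bound by NRF2, was in 4, beside 12.4%. No match says only that the letters are not in these windows. The 2 windows of rhythmic members that held a match are shown with it in capitals, that of *Gsta3* (chr1:21240455-21240482, plus strand) and that of *Gstm7* (chr3:107931725-107931752, minus strand), both with the antioxidant core, followed by the D-box of *Ugt2b1* (chr5:86926545-86926572, minus strand), which reads TTATGTAA on the other strand. *Ugt2b1* was not called rhythmic, with an adjusted p of 0.642 over both genotypes.
Gsta3: actcaggcaTGACATTGCatttttcttc
Gstm7: ctgaagaccTGACAAAGCgaagccaatc
Ugt2b1: ttgacagaacTTACATAAaagcagaaaa

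The *Ugt1* locus held *Ugt1a2*, the member with the widest spread. Its 7 members lie within chr1:88070800-88220002 (GRCm38, plus strand), and each joins its own first exon to the same 4 downstream exons. In the annotation (GENCODE M21), 50.3% to 60.6% of the exonic bases of each member belong to another member as well. The junctions of exon 1 with exon 2 show which part is shared, with the last 15 bases of exon 1 in lower case and the first 15 of exon 2 (chr1:88215044-88215175) in capitals. The capitals are the same in all 7, and the lower-case stretch takes 5 forms, being shared by *Ugt1a2* and *Ugt1a5* and by *Ugt1a6a* and *Ugt1a6b*.
Ugt1a1: aagcccctatcccagGAATTTGAAGCCTAT
Ugt1a2: aagcccctctctcagGAATTTGAAGCCTAT
Ugt1a5: aagcccctctctcagGAATTTGAAGCCTAT
Ugt1a6a: ggaaagctgactcagGAATTTGAAGCCTAT
Ugt1a6b: ggaaagctgactcagGAATTTGAAGCCTAT
Ugt1a7c: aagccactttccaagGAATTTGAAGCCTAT
Ugt1a9: aagtcactttccaagGAATTTGAAGCCTAT

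*Ugt1a1* fell into 2 separate ranges, which are described here without a test because its own level set them. It was at 158 to 191 FPKM in 8 libraries and at 256 to 407 in the other 16, with none between. In the same 8 libraries *Ugt1a6a*, which conjugates simple phenols, was at 62.7 to 118 FPKM, and in the other 16 at 24.2 to 38.2. *Ugt1a2* was at 15.2 to 94.5 in these 8 and 0.470 to 9.65 in the other 16, and *Ugt1a6b* at 36.2 to 69.0 and 16.1 to 30.3. *Ugt1a9*, *Ugt1a5* and *Ugt1a7c* overlapped between the same sets of libraries. The sum of all 7 members overlapped too, with 439.5 to 584 FPKM in the 8 and 377 to 583 in the 16, whereas *Ugt1a1* made up 29.2% to 41.2% of that sum in the 8 and 64.8% to 76.3% in the 16.

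The 8 libraries were 4 of WT and 4 of ΔRRE, from 5 of the 6 time points. They were WT CT6 replicate 1, CT10 replicate 2, CT14 replicate 1 and CT22 replicate 2, and ΔRRE CT14 replicate 2, both replicates of CT18 and CT22 replicate 2. In 6 of these 7 groups the other replicate was in the high range of *Ugt1a1*, as in WT CT6 with 158 and 280.3 FPKM of *Ugt1a1* and 94.5 and 0.691 of *Ugt1a2*. No correlation between 2 members of this locus is given, since the libraries fall into separate ranges. How the authors' program divided fragments of the shared exons among these genes is not stated, and its part in the opposite values of *Ugt1a1* and *Ugt1a2* was not tested. None of the 7 passed a test of level or of rhythm, and the adjusted p of the joint rhythm ran from 0.301 to 0.536.

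**Figure D5:**
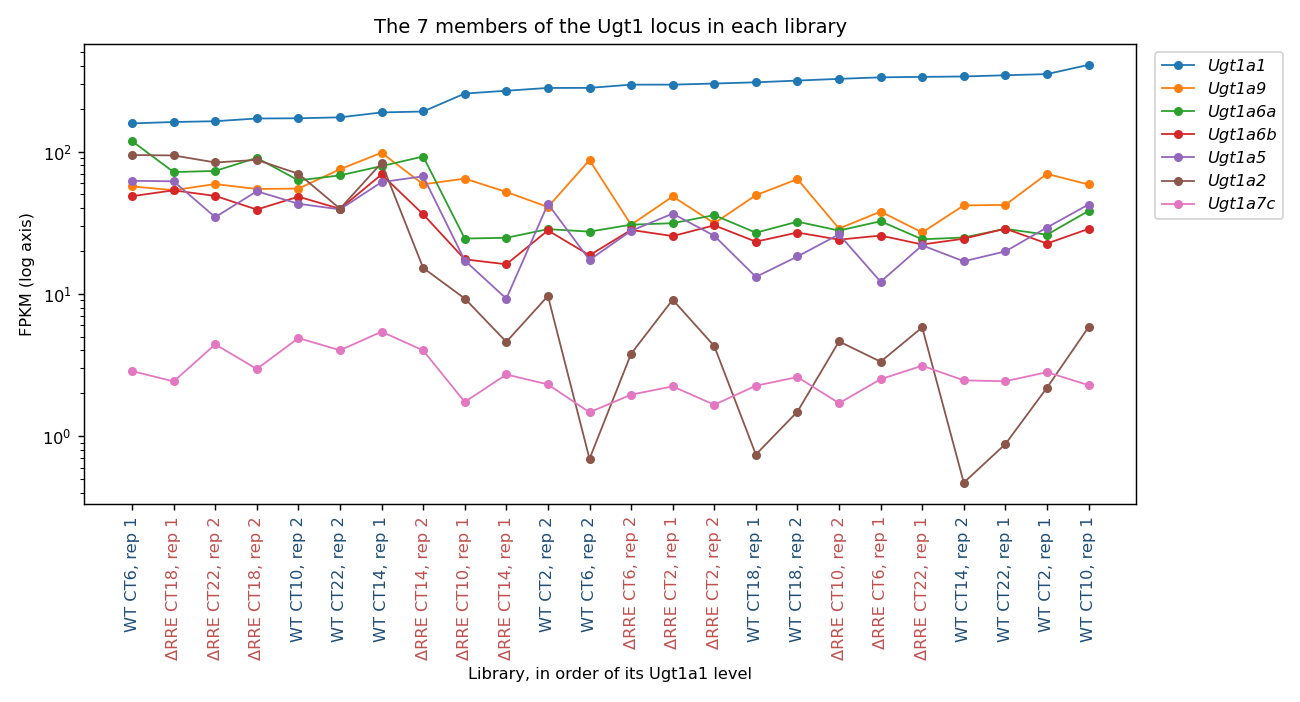
FPKM (log axis) of the 7 members of the *Ugt1* locus in each of the 24 libraries, ordered by their *Ugt1a1* level, with WT names in blue and ΔRRE names in red. The 8 libraries on the left have *Ugt1a1* at 158 to 191 FPKM with *Ugt1a6a* at 62.7 or more, and the 16 on the right *Ugt1a1* at 256 or more with *Ugt1a6a* at 38.2 or less.

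Of the 46 members, 31, all outside this locus, shared no 150-base stretch of transcript with another annotated gene. Shared stretches made up 17.6% of those of *Gstp1* and 35.7% of *Gstp2*, 19.5% of *Ugt2b5*, 19.2% of *Ugt2b38*, 19.6% of *Gsta2* and 68.5% of *Gsta1*, so that the values of these genes are uncertain to the extent that fragments were divided between copies. Members were also compared by how they varied between replicates. Over the 12 replicate differences, *Gstp1* and *Gstp2* had Pearson's r = 0.97 and Spearman's rho = 0.94, and r = 0.93 without the 2 most distant pairs of libraries. *Ugt2b5* and *Ugt2b36*, which share no such stretch, had r = 0.95, rho = 0.89 and r = 0.88 in the same order, *Gstm2* and *Gstm7* 0.90, 0.96 and 0.87, and *Gsta1* and *Gstm3*, of different classes, 0.92, 0.92 and 0.86. *Ugt2b5* and *Ugt2b38* had 0.90, 0.92 and 0.83. The pairs were named for their high r among 1035, that of *Gsta1* and *Gstm3* after its value was seen, so the values only describe them. All values of a library share its preparation and scaling.

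The order of the WT replicates repeated across the day in a number of members. In 12 of the 46 members the library labelled replicate 1 was on the same side of replicate 2 at all 6 WT time points, beside 4.62% of all genes tested. In ΔRRE this held for 0 of the 46 members, beside 7.54% of all genes. *Gsta1* in WT read 27.99 and 9.26 FPKM at CT2, 26.1 and 10.2 at CT6, 26.4 and 5.58 at CT10, 18.1 and 4.28 at CT14, 15.9 and 6.12 at CT18 and 10.1 and 8.47 at CT22, with replicate 1 above replicate 2 each time. *Gsta3*, *Gsta2*, *Gstm1*, *Gstm4*, *Gstm7*, *Gstt1*, *Gstt3*, *Mgst3* and *Sult1a1* had the same order, and *Gstp1* and *Gstp2* the reverse. *Gstp1* in WT read 533 and 711 FPKM at CT2, 364 and 978 at CT6, 622 and 795 at CT10, 605 and 901 at CT14, 685 and 988 at CT18 and 449 and 797 at CT22. The labels do not say what a replicate number stands for, and the difference between the genotypes in this count was not tested.

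Genes that supply the conjugated groups were looked at beside the enzymes. Of 16 genes of cofactor supply, 15 were tested, and 5 were rhythmic over both genotypes together by limma (adjusted p below 0.05). They were *Slc35b2*, a Golgi carrier of the activated sulfate, *Gclc*, the catalytic subunit of the enzyme that limits glutathione synthesis, *Gss* and *Gsr*, which make and recycle glutathione, and *Slc35d1*, a carrier of UDP-sugars. *Gclc* peaked at CT1.2 with an amplitude of 0.58 ± 0.092 (SE) and an adjusted p of 0.00277, and *Slc35b2* at CT8.4 with 0.40 ± 0.061 and 0.00198. The amplitudes of *Gss*, *Gsr* and *Slc35d1* were 0.29, 0.21 and 0.18, with peaks at CT11.2, CT3.6 and CT8.9. *Ugp2*, which makes UDP-glucose, was called in WT only, at an adjusted p of 0.0199.

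Of 14 other conjugating enzymes, all were tested and 5 had a joint rhythm. *Baat*, which joins bile acids to taurine or glycine, peaked at CT23.8 with an amplitude of 0.21 and an adjusted p of 0.00891. *Nnmt*, the methyltransferase of nicotinamide, peaked at CT13.7 with 0.53 and 0.0278. *Acsm5* and *Nat2* had an adjusted p of 0.0349 and 0.0431. A list of 6 hydrolases held enzymes that remove conjugated groups and, beside them, the carboxylesterase *Ces1f* and the epoxide hydrolases *Ephx1* and *Ephx2*. The epoxide hydrolases open epoxides and remove no such group. Of these 6, 5 were tested and 3 were called, *Arsa*, which removes sulfate, *Ephx2* and *Gusb*, which removes glucuronic acid, with peaks at CT6.7, CT20.7 and CT14.7 and an adjusted p of 0.00132, 0.0349 and 0.041. The shares of called genes in these lists, 5 of 15, 5 of 14 and 3 of 5, stand beside the 18.7% of all genes given above.

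Among 11 regulators, *Dbp* and *Tef*, which bind the D-box, had joint amplitudes of 3.39 and 1.41 with peaks at CT10.9 and CT12.6. *Nr1i2* (PXR, a receptor for foreign compounds) and *Hnf4a* were also called, with amplitudes of 0.25 and 0.19. *Nfe2l2*, which encodes NRF2, and its partner *Keap1* were not called, with an adjusted p of 0.768 and 0.401. No gene of these 4 lists passed the test of a genotype difference in level or in rhythm.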

How the data were processed

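Liver RNA of WT and ΔRRE mice was sequenced after poly(A) selection, in 12 libraries per genotype. The authors deposited FPKM values in 1 file per library, used here, and again in a joint table, and the submitters' processing notes name Trimmomatic 0.39, HISAT2 2.1.0 and StringTie 1.3.5 with mm10. The strand setting and annotation are not given in the sources used here. FPKM holds no counts, so the depth behind a value is unknown and no counting interval is given. Genes averaging 1 FPKM or more were tested on log2(FPKM + 0.1) with limma 3.58.1 (R 4.3.3) with an intensity trend, and p-values were adjusted by Benjamini-Hochberg over all 11244 genes. Fold changes on this scale understate those of low genes. The level test fitted genotype and time point, as a factor, to all libraries. Rhythm in 1 genotype came from 24-h cosine terms fitted to its 12 libraries alone. The joint rhythm and the rhythm difference came from genotype and cosine terms fitted to all libraries together. The fits were first run on simulated data. The labels do not say how replicates were drawn, so p-values measure the spread between these samples. Alternatives were other constants, filters and scalings, a replicate block, time as a factor and each library left out. Positions are of GENCODE M21 (GRCm38).

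Named were the 10 highest members, the highest of each subfamily, all called members, the 5 largest amplitudes, the 4 largest differences of each sign, the 3 genes on each side of the limit, the 5 most alike pairs and called genes of 4 pathway lists. *Ugt1a6a* and *Ugt1a6b*, among those pairs, fall into separate ranges and are given no correlation. The members and lists were chosen with earlier results of these data known. Some genes of the pathway lists are not reported here.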

Additional observations from a re-analysis of the deposited data

How the results depend on the processing

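The counts of members called for a level difference or a difference in rhythm remained 0 in every alternative run, and no alternative turned a reported direction of a called member. Members called in WT numbered 7, beside 3 without a filter on low genes, 1 with time as a factor, and 4 to 8 with 1 library left out, the lowest without WT CT18 replicate 2. Those called in ΔRRE numbered 2, beside 1 without the filter, 1 with time as a factor, 4 with the replicate block, and 1 to 5 with 1 library left out. The count was 1 without ΔRRE CT6 replicate 1 or either CT18 replicate and 5 without CT22 replicate 1. For both genotypes together they numbered 6, and 2 with time as a factor. By the looser criteria, 14 to 26 members were rhythmic in WT with 1 library left out, the most without WT CT6 replicate 2. The cause of these changes was not tested.

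Same-numbered WT and ΔRRE samples did not deviate together at every time (r from -0.119 to 0.206 over the genes), so the replicate block rests on numbers alone, and beside that count it took the number of all genes that differed in rhythm from 1 to 0. It moved no other count by over 1.5 times. Over all genes, 1157 were called in WT, 519 without the filter and 361 with time as a factor. In ΔRRE the counts were 514, 197 and 353, and 174 without the 2 libraries high in acute phase genes, an alternative chosen after seeing the data. Without 1 library the WT count was 740 (WT CT10 replicate 2) or 770 (WT CT2 replicate 1), and the ΔRRE count 298 to 330 without any single ΔRRE library of CT14 or CT18. For both genotypes together they were 2107 and, with time as a factor, 1087.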

Other observations

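Of the 21 genes of the same families below the limit of 1 FPKM, 13 were above 0 in at least 1 library. *Ugt1a10*, a further first exon of the *Ugt1* locus, had a mean of 0.422 FPKM and its highest value, 3.87 FPKM, in WT CT22 replicate 2. *Sult1e1*, the estrogen sulfotransferase, had a mean of 0.145 FPKM and its highest value, 0.722 FPKM, in ΔRRE CT14 replicate 1, the library with the highest acute phase sum. It was at 0 in 10 of the 24 libraries, and its mean was 0.182 FPKM in WT and 0.108 in ΔRRE. These genes were not tested.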
